A study of Mus musculus with 10 samples.

Results

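Vestibular Nox3 nonsensory epithelial cells, called Nox3 cells here, were taken from single-cell RNA-seq of the vestibular organs of old mice. A cell was a member when it carried a UMI, one counted mRNA molecule, of at least 3 of the 7 genes Vcan, Nox3, Adgrg6, Kdr, Sfrp5, Tacr3 and Cldn4. It also had to carry a UMI of fewer than 3 of the hair cell (HC) genes Myo6, Myo7a, Pou4f3, Tmc1, Kncn and Gfi1, and none of the endothelial gene Cdh5. Cells entered when they had 1000 UMIs or more from 200 genes or more and mitochondrial UMIs stayed under 25%. Of 10424 such vestibular cells, 674 met the rule (6.47%, exact 95% interval 6.0 to 6.96%). The members were thus chosen by measured RNA, the UMIs of the genes of the rule. With the cochlear libraries of the series, 17696 cells met the same quality limits.

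The animals were Wild-type CBA/J mice labelled 22 months old, males and females, and each library pooled the organs of 7 to 8 mice. No gene was altered, no agent was given and no cells were sorted by any step described for these libraries, so all cells came from the same untreated group. Whole cochlear or vestibular organs were dissected and digested with collagenase, and the cells were captured with 10x 3′ chemistry in 5 libraries per organ. No young animals entered, so nothing is said about change with age. Because each library is a pool, animals within it cannot be told apart, and sexes were not compared.

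Vestibular replicate 2 repeated replicate 1. The pair shared 1633 cell barcodes, 37 of the 38 members found in each were the same barcodes, and the 38 replicate 1 members had a median correlation of 0.998 with the same barcodes in replicate 2. The summed counts of these cells differed by less than sampling noise, with a chi-square per gene of 0.0570 against 4.99 for replicates 1 and 4, so both were counted as 1 sample and replicate 1 was used. Between the other vestibular libraries no member barcode was shared. Cochlear replicate 2 shared 1313 barcodes with cochlear replicate 1 and was left out as well. The 4 libraries used held 4150642, 24104850, 10318267 and 9482901 UMIs in replicates 1, 3, 4 and 5. All values over libraries below follow that order.

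Nox3 cells numbered 38 of 867 kept cells in replicate 1 (4.38%, interval 3.12 to 5.97%), 441 of 5438 in replicate 3 (8.11%, 7.40 to 8.87%), 127 of 2448 in replicate 4 (5.19%, 4.34 to 6.14%) and 68 of 1671 in replicate 5 (4.07%, 3.17 to 5.13%). They were thus found in every library, and replicate 3 had the largest share. The mean share was 5.44 ± 1.84% (SD, n = 4), and replicate 3 alone held 65.4% of all members. In the cochlea 1 of 7272 kept cells met the rule, in replicate 5. These intervals cover counting error only, and the rule was drawn from vestibular cells, so the organs are given side by side without a test.

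The vestibular organs are lined by sensory patches of HCs and supporting cells, surrounded by nonsensory epithelium. The nonsensory part includes transitional cells next to the patches and dark cells, which secrete potassium into the endolymph. Nox3 is an NADPH oxidase of the inner ear that makes superoxide together with its membrane partner Cyba and the organiser Noxo1, and mice without it form no otoconia, the mineral crystals that load the gravity sensors. Of the other genes in the rule, Vcan encodes versican, a large matrix proteoglycan, and Adgrg6 an adhesion G protein-coupled receptor. Kdr encodes a receptor of vascular endothelial growth factor, Sfrp5 a secreted Wnt inhibitor, Tacr3 the receptor of neurokinin B and Cldn4 a tight junction claudin.

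The genes lie apart in the genome. In GRCm38, Nox3 spans chr17:3635240-3696261 on the minus strand, Sfrp5 chr19:42197971-42202252 on the minus strand and Tacr3 chr3:134829007-134934579 on the plus strand. Vcan lies at chr13:89655312-89742509, Adgrg6 at chr10:14402583-14545659, Kdr at chr5:75932827-75978458 and Cldn4 at chr5:134945119-134946934, all on the minus strand. The 250 bases before the annotated starts of Nox3, Sfrp5 and Tacr3 are printed as examples of the genes that chose the cells, 1 oxidase, 1 secreted inhibitor and 1 receptor. Of the 3, Tacr3 was also found in 22% of dark cells, at 0, 86.9, 97.4 and 23.2 CPM (UMIs of a gene per 1000000 UMIs of the population in a library). The sequences are from RefSeq on GRCm38.p6, each written 5′ to 3′ on the strand of its gene. All 7 genes of the rule had a RefSeq entry. Capitals mark matches, on either strand, to 5 short strings. These are AGATAA, read by the Gata family of factors, GGTGTGA, read by T-box factors, TGACAG, read by Meis factors, TGTTTA, read by forkhead factors, and TATAAA, the core promoter box of the same name.

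Nox3, chr17:3696262-3696511, minus strand: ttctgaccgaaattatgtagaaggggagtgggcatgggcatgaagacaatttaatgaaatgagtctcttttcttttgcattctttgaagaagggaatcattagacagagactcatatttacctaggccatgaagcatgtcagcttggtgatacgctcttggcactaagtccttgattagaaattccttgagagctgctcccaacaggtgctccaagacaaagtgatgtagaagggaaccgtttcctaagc
Sfrp5, chr19:42202253-42202502, minus strand: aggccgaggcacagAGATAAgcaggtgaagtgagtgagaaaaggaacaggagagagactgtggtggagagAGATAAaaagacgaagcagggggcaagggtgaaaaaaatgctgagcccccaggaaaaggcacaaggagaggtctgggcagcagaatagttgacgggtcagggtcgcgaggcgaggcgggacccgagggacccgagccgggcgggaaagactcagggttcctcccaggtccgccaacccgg
Tacr3, chr3:134828757-134829006, plus strand: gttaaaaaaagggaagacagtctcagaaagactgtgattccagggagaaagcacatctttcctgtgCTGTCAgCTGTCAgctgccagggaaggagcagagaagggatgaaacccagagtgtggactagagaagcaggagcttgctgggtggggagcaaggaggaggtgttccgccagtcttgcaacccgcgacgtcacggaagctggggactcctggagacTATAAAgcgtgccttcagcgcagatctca

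The window of Sfrp5 held AGATAA 2 times, and that of Tacr3 held CTGTCA, the reverse complement of TGACAG, 2 times and TATAAA 1 time. The window of Nox3 held none of the 5 strings. Nor did those of the other rule genes, Vcan, Adgrg6, Kdr and Cldn4, which are not printed. Over 32851 RefSeq windows of the same length, 9.99% held AGATAA, 3.33% GGTGTGA, 15.9% TGACAG, 12.0% TGTTTA and 12.4% TATAAA, on either strand. A match is a string of letters and not a measured binding site.

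The cells had the RNA of epithelium. A UMI of Epcam, the adhesion protein of simple epithelia, was found in 95% of members, and Krt18, a keratin of simple epithelia, in 72.0%. A list of 13 HC genes summed to 268 ± 71.5 CPM (SD, n = 4), and Myo6 led it. The list holds the 6 HC genes of the rule, Myo6 among them, so its low sum follows in part from the choice of cells. The 7 genes that define supporting cells (Otog, Otogl, Tectb, Sox2, Lfng, Agr3 and Zpld1) summed to 847, 108, 107 and 115 CPM in Nox3 cells against 5330 ± 1095 CPM in supporting cells. In replicate 1, 1 member that also met the supporting cell rule held 106 of the 111 UMIs of these genes, and the other 37 members had 42.3 CPM.

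Markers of other tissues were mostly low. Of 12 endothelial markers 6 were at 0, Cdh5 among them by the rule, and the 12 summed to 22.7 ± 16.6 CPM. The rule sets this in part, since it takes no cell with a Cdh5 UMI. Of 9 mural markers 4 were at 0 and the sum was 6.07 CPM. Macrophage markers summed to 62.8 CPM (1 of 10 at 0, led by Lyz2) and lymphocyte markers to 24.3 CPM (1 of 8 at 0, led by Cd79a). Melanocyte markers summed to 43.1 CPM (1 of 7 at 0, led by Dct) and neuronal markers to 19.1 CPM (1 of 7 at 0, led by Nefm).

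Other lists had more RNA. The granulocyte list reached 2573 CPM in replicate 3, led by S100a8, and was at or below 36.7 CPM in the other libraries. The erythroid list reached 114, 8471, 46119 and 25172 CPM, led by the haemoglobin gene Hbb-bs. The fibroblast list summed to 1242 ± 822 CPM, led by Coch, with Col1a1 at 0, against 7107 CPM in the rest of the vestibular cells. The glial list summed to 380 ± 68.4 CPM, led by Sox10, which the otic epithelium also uses. The cartilage and bone list summed to 568 ± 118 CPM, nearly all of it Ucma, with 3 of its 8 genes at 0. The part that free RNA or mixed cells had in these sums was not tested.

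The data thus did not go against the label, but the rule selects on expression, so the 7 genes that chose the cells are described here and not tested. Vcan reached 1755, 2298, 1441 and 2002 CPM, and a UMI was found in 86.4% of members. Nox3 reached 1396, 1275, 1165 and 1274 CPM (1278 ± 94.5, SD, n = 4) and was found in 81.5% of members. Adgrg6 reached 1358, 1519, 1147 and 1483 CPM and was found in 92.9%. Adgrg6 was thus the gene of the rule detected in most cells.

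The other 4 rule genes were found in fewer members, from 42.0% for Sfrp5 and 44.8% for Tacr3 to 53.6% for Cldn4 and 54.3% for Kdr. Kdr reached 359, 467, 364 and 372 CPM, and replicate 3 was the highest. Sfrp5 reached 511, 396, 290 and 309 CPM, and Cldn4 followed the same order of libraries with 511, 338, 246 and 288 CPM. Tacr3 reached 206, 291, 257 and 388 CPM, with replicate 1 the lowest. In each of the 4 libraries every rule gene was higher in Nox3 cells than in supporting cells, dark cells or HCs, as the selection requires of most of them.

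**Figure D1:**
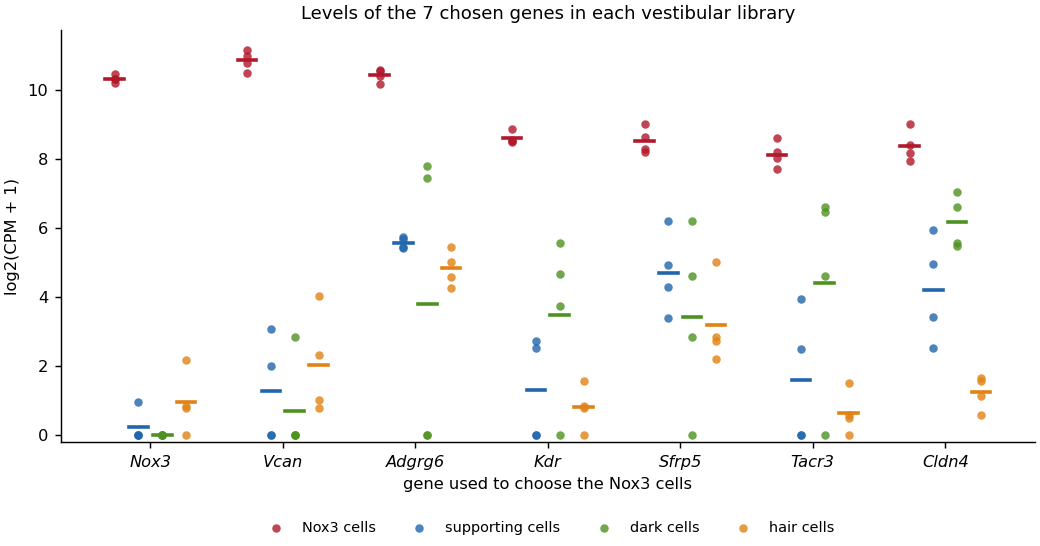
Level of the 7 genes of the rule, as log2(CPM + 1), in Nox3 cells, supporting cells, dark cells and HCs, with 1 point per vestibular library (replicates 1, 3, 4 and 5). The level of Nox3 lies between 1165 and 1396 CPM in the 4 libraries of Nox3 cells and at or below 3.49 CPM in the other populations, since these genes chose the cells.

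Nox3 RNA was rare outside the members, with a UMI in 1.14% of all other kept vestibular cells. In HCs, 0.702% of cells had a Nox3 UMI at a median of 4603 UMIs per cell, against 81.5% of members at a median of 2170 UMIs. Spp1, an abundant gene of HCs, was found in 36.1% of Nox3 cells and in 97.2% of HCs, and the part of free RNA in such shares was not tested. With every cell thinned to 1000 UMIs the share with Nox3 was 65.6% in Nox3 cells, 0% in supporting cells (1 of 456 before thinning, 0.219%), 0% in dark cells (0 of 50 cells, which allows a share of up to 6.0% by counting error alone) and 0.251% in HCs. The value of dark cells and its limit follow in part from the rule, since the 30 cells that met both rules were counted as Nox3 cells and 13 of them had a Nox3 UMI.

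**Figure D2:**
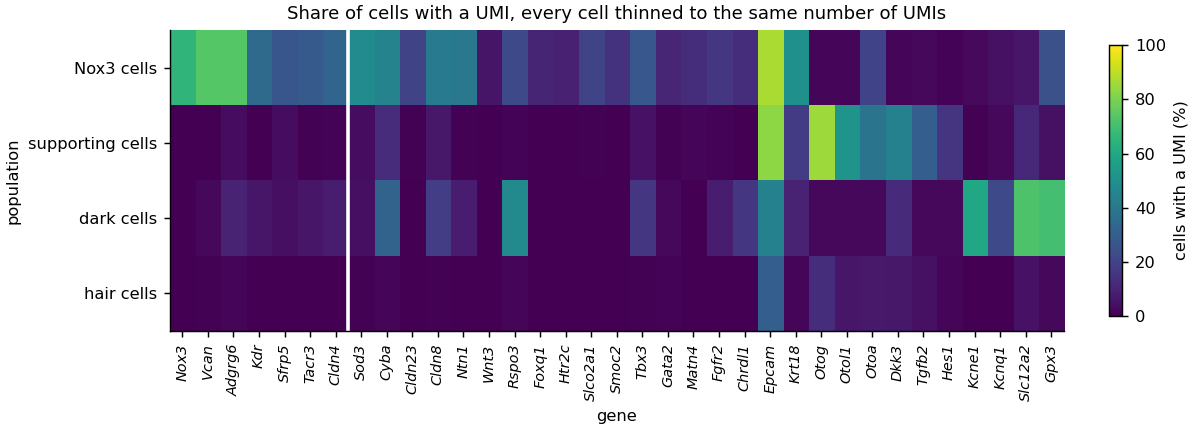
Heat map of the percent of cells with a UMI after thinning each cell to 1000 UMIs, with genes in columns and the 4 populations in rows. Nox3 stands at 65.6% in Nox3 cells and at or below 0.251% elsewhere, and Otog at 85.5% in supporting cells and 1.48% in Nox3 cells.

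Members differed in how many rule genes they showed. Of the 674 cells, 156 had 3 of the 7 genes, 189 had 4, 173 had 5, 112 had 6 and 44 had all 7. At the threshold, the 197 cells just outside it, with 2 rule genes, had 64.4 CPM of Nox3, 90.4 CPM of Sod3 and 1701 CPM of Epcam. The 156 cells just inside it had 490, 458 and 1953 CPM of the same genes, and the 189 cells with 4 genes had 1141, 877 and 2305 CPM. The step in Nox3 follows from the rule, which counts that gene. Cldn8 rose in level at each step too, from 177 to 463 and 562 CPM. Enpep, an aminopeptidase gene, and Kcne1 did not, with Enpep at 369, 1116 and 967 CPM and Kcne1 at 209, 583 and 177 CPM in cells with 2, 3 and 4 rule genes.

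Members with and without a Nox3 UMI differed in depth and in other genes. The 549 cells with a Nox3 UMI had a median of 2221 UMIs, and the 125 without one had 1979. The part of depth in the shares that follow was not tested. Sod3, extracellular superoxide dismutase, was found in 67.9% of the cells with Nox3 and 35.2% of those without. Ntn1, the guidance molecule netrin-1, was found in 68.7% and 44.8%, and the forkhead factor Foxq1 in 24.4% and 9.60%. Genes of dark cells and Lrp2 went the other way. Kcne1, a subunit of the dark cell potassium channel, was found in 0.911% of the cells with Nox3 and 13.6% of those without, the nuclear receptor Esrrb in 0.182% and 9.60%, and the endocytic receptor Lrp2 in 5.83% and 23.2%.

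Those dark cell genes sat in a small set of cells. The dark cell rule, a UMI in at least 3 of 7 dark cell genes that include Kcne1, Kcnq1, Bsnd, Esrrb and Atp1b2, was also met by 30 members. They held 99.2% of all Kcne1 UMIs of Nox3 cells, all of the Esrrb UMIs, 79.2% of those of Lrp2 and 43.7% of those of Atp1b2, a subunit of the sodium pump. The shares of Kcne1, Esrrb and Atp1b2 follow in part from the dark cell rule, which counts these genes but not Lrp2. The median of the 30 members was 5131 UMIs against 2117.5 in the other 644 members, and 13 of the 30 had a Nox3 UMI. The supporting cell rule was also met by 6 members, and 638 met no other rule. Doublets, droplets with more than 1 cell, were not removed, and whether these 30 cells are such droplets was not tested.

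The RNA of Nox3 cells was rich in Malat1, a long noncoding RNA kept in the nucleus. It made up 8.19, 11.1, 11.8 and 15.7% of their UMIs (11.7 ± 3.11%, SD, n = 4). In supporting cells it made up 2.02 ± 0.887%, in dark cells 4.70 ± 1.08% and in HCs 3.99% on average. The 4 libraries of Nox3 cells did not overlap with those of supporting cells or dark cells. By the test described below, Malat1 was higher in Nox3 cells than in supporting cells by 2.57 ± 0.37 on the log2 scale (SE, adjusted p = 4.58e-05), and the log2 difference from dark cells was 1.36 ± 0.41 (adjusted p = 0.0519, and 2.99e-05 with the library, or replicate, as a block). Of the supporting cells 78.1% had a Malat1 UMI, against 99.9% of Nox3 cells.

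Mitochondrial genes made up 6.95, 7.30, 2.80 and 5.83% of the UMIs of Nox3 cells and 9.52, 11.6, 6.33 and 10.9% of those of supporting cells, so the supporting cells were higher in each library. Haemoglobin RNA varied widely between libraries, at 0.0114, 0.845, 4.60 and 2.51% of UMIs in Nox3 cells. These shares differ between the populations beside every difference given below, and their part in those differences was not tested.

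**Figure D3:**
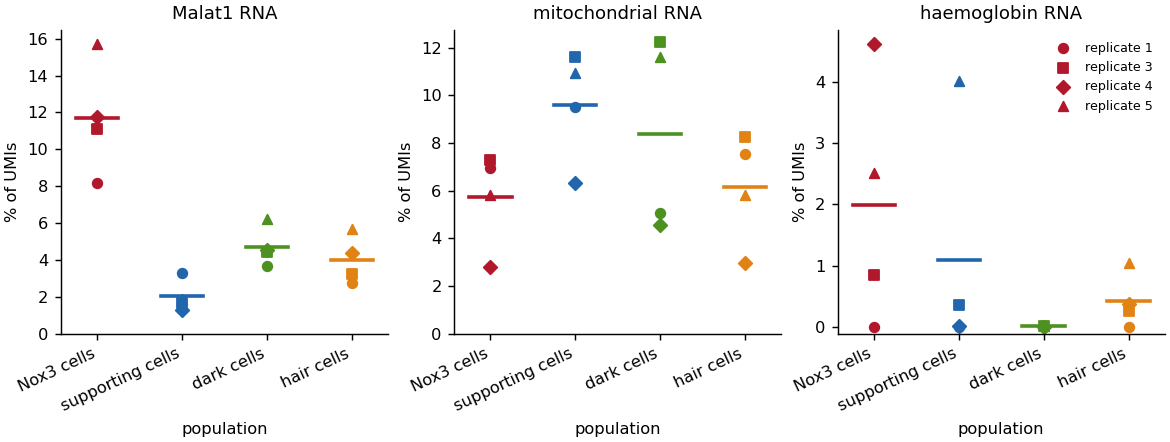
Percent of UMIs from Malat1, mitochondrial genes and haemoglobin genes in each population, with 1 point per vestibular library. Malat1 lies between 8.19 and 15.7% in Nox3 cells and at 2.02% on average in supporting cells, and haemoglobin ranges from 0.0114 to 4.60% in Nox3 cells.

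Against all other kept vestibular cells, the 20 genes with the highest ratio of mean CPM named receptors and matrix proteins in addition to the rule genes. This ranking follows from the choice of cells and carries no test. The serotonin receptor Htr2c had a ratio of 443 at 100 ± 20.3 CPM, and the muscarinic acetylcholine receptor Chrm2 a ratio of 85.3 at 60.6 ± 38.9 CPM. The inducible nitric oxide synthase Nos2 had a ratio of 73.8, Foxq1 72.2, Sod3 65.8 and the claudin Cldn23 53.6. The matrix protein Smoc2 had a ratio of 48.4, the prostaglandin transporter Slco2a1 36.0, the transcriptional coregulator Cited1 33.3 and Ntn1 32.4. Cited1 was also found in 30% of dark cells, at 110, 68.3, 195 and 0 CPM. In dark cells Ntn1 reached 877, 0, 122 and 765 CPM, and these libraries overlapped with those of Nox3 cells (log2 difference 0.41 ± 0.75, adjusted p = 0.798 in edgeR's quasi-likelihood test). The Wnt ligand Wnt3 had a ratio of 568, with 229, 73.4, 51.5 and 47.2 CPM, and 1 cell of replicate 1 held 10 of that library's 30 UMIs. Mup5, a major urinary protein gene of a family of near-identical copies, had the highest ratio, 638, with 45 UMIs in all, 23 of them in 3 cells of replicate 1 and 18 in 7 cells of replicate 3.

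To ask how Nox3 cells differ from the supporting cells of the sensory patches, UMIs were summed per library over each population. The supporting cells were 101, 176, 131 and 48 cells with a UMI in at least 3 of the 7 supporting genes named above, and they were not Nox3 cells. A gene was called at an adjusted p under 0.05 in edgeR's quasi-likelihood test. Genes used by the rule of either population were left out of every count. Of 4946 genes tested, 1177 were called (23.8%), 545 higher in Nox3 cells (11.0%) and 632 lower (12.8%), and the median log2 difference of all genes was -0.00. The libraries of the populations did not overlap for 431 of the genes called higher and 539 of those called lower. A tendency for genes to move with the 7 rule genes, or with the 7 genes that define supporting cells, follows partly from the choice of cells.

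**Figure D4:**
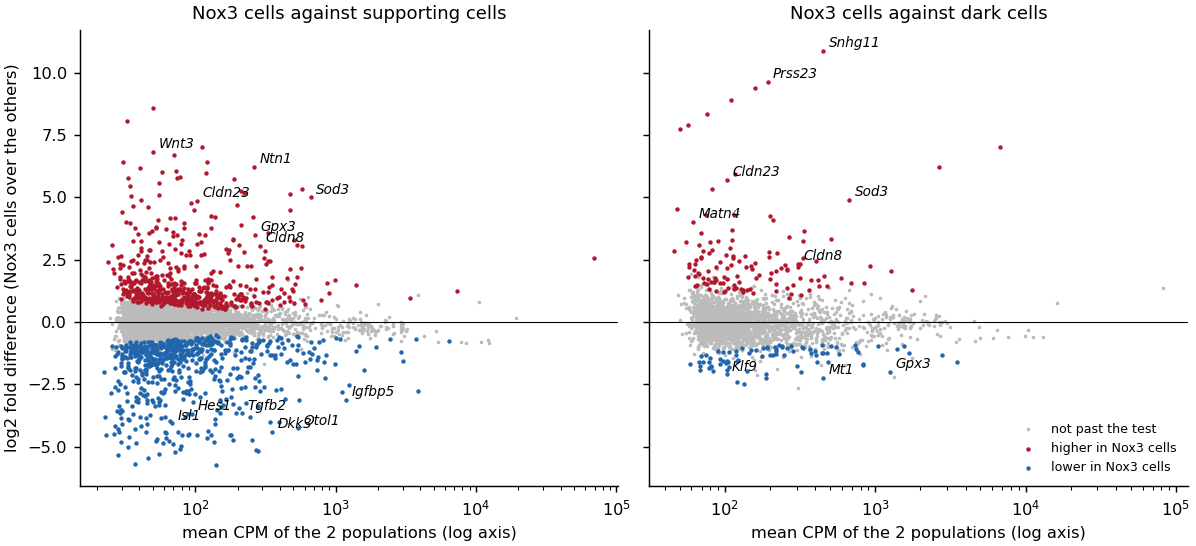
Log2 difference between Nox3 cells and supporting cells, and between Nox3 cells and dark cells, plotted against mean CPM, with 1 point per gene tested and called genes in colour. Among 4946 genes 1177 were called against supporting cells, and among 2413 genes 214 against dark cells.

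Oxidant genes came first in the ordering by role. Of the NADPH oxidase list other than Nox3, 3 of 16 genes passed the filter on low counts and 1 was called (33.3%, against 23.8% of all genes). Cyba, the membrane partner that Nox3 needs, reached 496, 591, 566 and 550 CPM in Nox3 cells and 157, 198, 157 and 104 CPM in supporting cells. It was higher in Nox3 cells in every library, by 1.82 ± 0.22 (log2, SE, adjusted p = 6.13e-06). The organiser Noxo1 reached 68.7, 25, 36.8 and 21.0 CPM against 39.3, 34.6, 46.6 and 14.2 CPM, and the libraries overlapped (log2 difference -0.14 ± 0.35, adjusted p = 0.823). For the small GTPase Rac1 the difference was 0.15 ± 0.22 (adjusted p = 0.698).

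The antioxidant list was split. Of 25 genes 22 were tested, 4 were higher and 4 lower in Nox3 cells (36.4% called, against 23.8% of all genes), and the median log2 difference was -0.29. The lower count rests on single libraries, since it was 1 (Gclc) without replicate 3 or replicate 4 and 2 without replicate 5. Sod3 reached 2297, 1364, 713 and 776 CPM in Nox3 cells and 90.8, 26.2, 19.6 and 28.5 CPM in supporting cells. The lowest Nox3 library was thus far above the highest supporting library, and the log2 difference was 5.01 ± 0.46 (adjusted p = 3.91e-07). The secreted glutathione peroxidase Gpx3 was higher by 3.49 ± 0.35 and the peroxiredoxin Prdx5 by 1.16 ± 0.22. Gclc, which catalyses the first step of glutathione synthesis, was lower by 1.55 ± 0.28 on the log2 scale, at 28.6 ± 8.09 CPM against 72.6 ± 8.65 CPM. Gpx4, the lipid peroxide reductase, reached 917 ± 141 CPM in Nox3 cells and 1152 ± 105 CPM in supporting cells, which did not pass (adjusted p = 0.275). Prdx6 was called lower (adjusted p = 0.0194), but the libraries overlapped and without replicate 3 the adjusted p was 0.188.

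Genes of the otoconia and of the gels over the sensory cells were mostly lower in Nox3 cells. The supporting cells were chosen by UMIs of gel genes such as Otog and Tectb, which were left out of this list. Lower levels of genes that move with them may follow in part from that choice. Of 12 genes 7 were tested, 1 was higher and 4 were lower (71.4% called), with a median of -1.34. Of all genes 23.8% were called and 12.8% were lower. The otoconial collagen gene Otol1 reached 130, 25, 40.4 and 57.6 CPM in Nox3 cells and 1335, 699, 923 and 1092 CPM in supporting cells, a log2 difference of -4.26 ± 0.38 (adjusted p = 3.20e-07). In replicate 1 all 17 of its UMIs came from the 1 member that also met the supporting rule. The tectorial genes Tecta and Otoa differed by -4.55 ± 0.51 and -1.34 ± 0.21, and the otoconial matrix protein gene Sparcl1 by -2.23 ± 0.27. Matn4, a matrix adaptor protein, was higher, at 114, 123, 121 and 105 CPM against 15.1, 11.2, 0 and 4.75 CPM (log2 difference 3.72 ± 0.38, adjusted p = 1.03e-06). Oc90 and Otop1, a main otoconial protein and a channel needed for otoconia, had no UMI in 674 Nox3 cells, which allows a share of up to 0.445% of cells with one.

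The Wnt list was split. Of 47 genes 18 were tested, 5 were higher and 5 lower (55.6% called, against 23.8% of all genes). Without replicate 3 the counts were 2 higher and 5 lower of 15, and without replicate 5 they were 5 higher and 8 lower of 21. The R-spondin Rspo3, a secreted enhancer of Wnt signalling, reached 473, 356, 441 and 440 CPM in Nox3 cells and 24.2, 4.67, 7.36 and 23.7 CPM in supporting cells. It was higher in each library, by 5.19 ± 0.36 (adjusted p = 2.35e-08). Wnt3 had 141 UMIs in Nox3 cells and 1 in supporting cells, a ratio of 159 with a counting interval of 28 to 6314. Dkk3, of the Dickkopf family, fell from 663 ± 123 CPM in supporting cells to 42.9 ± 53.0 CPM (log2 difference -4.41 ± 0.46). Wnt7a had UMIs in 1 Nox3 cell and reached 64.9 ± 4.76 CPM in supporting cells (log2 difference -4.28 ± 0.71, adjusted p = 0.000186, but 0.218 with DESeq2).

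Junction genes were split as well. Of 29 claudin and tight junction genes 14 were tested, 3 were higher and 3 lower (42.9% called, against 23.8% of all genes). Cldn8, a barrier-forming claudin, reached 519, 618, 456 and 487 CPM in Nox3 cells and 75.7, 77.6, 49.1 and 38.0 CPM in supporting cells (log2 difference 3.06 ± 0.24, adjusted p = 9.49e-08). Cldn23 was higher by 4.87 ± 0.42, at 201 ± 60.9 CPM. The lower genes included Cldn10 and Marveld3. Cldn3 was called higher (adjusted p = 0.0139), but its libraries overlapped, and the adjusted p was 0.117 without replicate 4.

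Of 24 keratin and adhesion genes 11 were tested, 2 were higher and 1 lower (27.3% called, near the 23.8% of all genes). Krt18 reached 717, 646, 923 and 514 CPM against 251, 249, 167 and 161 CPM, a log2 difference of 1.75 ± 0.24, and the desmosomal cadherin Dsg2 was higher by 1.27 ± 0.30. Krt8, the usual partner of Krt18, reached 151 ± 17.0 CPM against 233 ± 117 CPM and did not pass (adjusted p = 0.135). Cdh2, which encodes N-cadherin, fell by 3.80 ± 0.50 on the log2 scale, from 74.2 ± 23 CPM in supporting cells to 6.21 ± 6.49 CPM in Nox3 cells. The gap junction genes Gjb2 and Gjb6 were both lower, by 1.12 ± 0.25 and 1.45 ± 0.27 on the log2 scale, and were the 2 connexins tested of 15.

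Potassium transport genes were split. Of 16 genes 12 were tested, 6 were higher and 2 lower (66.7% called, against 23.8% of all genes), with a median of 1.02. Kcne1, Slc12a2 and Kcnq1 were among those higher, but most of the RNA of Kcne1 lay in the 30 members that also met the dark cell rule, and Kcnq1 was not called without replicate 3, 4 or 5. Without the members that met another rule, Kcne1 and Kcnq1 fell under the filter on low counts, and the list had 4 genes higher and 4 lower of 10. The sodium-potassium-chloride cotransporter gene Slc12a2 then turned from 3.09 ± 0.35 (adjusted p = 3.27e-06) to -1.39 (adjusted p = 0.00853), so it was lower in Nox3 cells that met no other rule. Atp1b2 reached 771, 450, 478 and 592 CPM against 118, 96.3, 88.4 and 123 CPM (log2 difference 2.43 ± 0.23). It was higher in all 4 libraries and passed in every alternative that tested it. The inward rectifier genes Kcnj10 and Kcnj16 fell by 3.79 ± 0.56 and 3.66 ± 0.40 on the log2 scale.

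Of 23 genes of the pendrin and acid-base list 5 were tested, 3 were lower and 2 were not called (60% called, against 23.8% of all genes). The carbonic anhydrase gene Car13, 1 of these 2, was called higher under the replicate block, and with Car2 without replicate 5. Slc26a4, which encodes the anion exchanger pendrin, reached 7.63, 40.9, 7.35 and 0 CPM in Nox3 cells and 212, 190, 152 and 190 CPM in supporting cells (log2 difference -2.89 ± 0.39, adjusted p = 2.70e-05). The bicarbonate cotransporter gene Slc4a4 and the carbonic anhydrase gene Car14 differed by -2.98 ± 0.38 and -2.85 ± 0.47. Aqp4, the 1 aquaporin tested, was lower too. Of the relatives of Adgrg6, 5 of 24 adhesion receptor genes were tested and 2 were lower, the planar polarity cadherins Celsr1 and Celsr2. When any 1 of the 4 libraries was left out, Celsr1 alone was called.

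Transcription factors of the ear were called in both directions. Of 38 genes 21 were tested, 9 were higher and 9 lower (85.7% called, against 23.8% of all genes), and the median was 0.00. The T-box factor Tbx3 reached 435, 332, 301 and 393 CPM in Nox3 cells and 54.5, 41.1, 36.8 and 38.0 CPM in supporting cells, a log2 difference of 3.09 ± 0.22 (adjusted p = 2.79e-08). Gata2 was higher by 3.14 ± 0.35 and Lmx1a, a regulator of nonsensory fate in the ear, by 3.58 ± 0.41. Hmx2 and Meis2 were higher by 1.59 ± 0.25 and 1.02 ± 0.20. The others that were higher were Hmx3, Tbx1, Meis1 and Zfp503.

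The 9 factors that were lower were led by Hey2 and Isl1. Isl1 reached 15.3, 4.17, 14.7 and 5.24 CPM in Nox3 cells and 212, 89.8, 135 and 71.2 CPM in supporting cells (log2 difference -4.07 ± 0.46). Prox1 and the Notch targets Hes1 and Hey2 differed by -3.92 ± 0.44, -3.68 ± 0.39 and -4.51 ± 0.63, with 3 UMIs of Hey2 in Nox3 cells and 90 in supporting cells (26.6-fold lower, counting interval 8.83 to 132). Sox9, Eya1, Eya4 and Tbx2 were also lower. Without replicate 3 the list had 9 higher and 5 lower of 19 tested, and Hey2, Tbx2 and Eya4 were not among the 5.

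The Notch, BMP and FGF lists had more genes lower than higher. Of 22 Notch genes 7 were tested and 5 were lower (12.8% of all genes were lower), with the ligand Jag1 at 0, 6.68, 3.68 and 5.24 CPM against 121, 72.9, 78.6 and 71.2 CPM (log2 difference -3.87 ± 0.39, adjusted p = 7.90e-07). The receptor Notch2 was higher, at 74.6 ± 23.8 CPM against 13.7 ± 4.54 CPM. Without replicate 3 the Notch list had 2 lower, Jag1 and Hes1, and none higher of 5 tested. Of 37 genes of the BMP, activin and Id list 13 were tested, 8 were lower, among them Tgfb2 (-3.67 ± 0.30) and Bmp6 (-3.39 ± 0.48), and 2 were higher. These 2 were the BMP antagonist Chrdl1, at 153, 141, 158 and 142 CPM against 0, 4.67, 0 and 0 CPM, and the coreceptor Tgfbr3 (2.90 ± 0.22).

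Of 33 FGF and EGF genes 11 were tested, 3 were higher and 6 lower (81.8% called, against 23.8% of all genes). The receptor Fgfr2 reached 168, 165, 151 and 142 CPM in Nox3 cells against 18.2, 14, 0 and 9.50 CPM (log2 difference 3.79 ± 0.37, adjusted p = 6.61e-07), and the ligand Fgf9 was higher by 2.37 ± 0.40. Fgf10, a ligand of that receptor, and Egfr differed by -3.91 ± 0.55 and -2.52 ± 0.26. In the retinoic acid list, 7 of 19 were tested, with Aldh1a1 higher (1.33 ± 0.32) and 4 lower (71.4% called). The synthesis genes Aldh1a3 and Rdh10 differed by -2.69 ± 0.27 and -1.90 ± 0.28. Both Aldh1a1 and Aldh1a3 make retinoic acid, and they lay on opposite sides.

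Of 28 basement membrane genes 9 were tested, 6 were higher, none was lower and 3 did not pass (66.7% called, against 23.8% of all genes), with a median of 0.92. Agrn, which encodes agrin, reached 145, 139, 95.6 and 105 CPM against 72.6, 23.4, 17.2 and 4.75 CPM (2.07 ± 0.39), and nephronectin, Npnt, was higher by 2.09 ± 0.33. Col4a5, Lamc1, Lama5 and Itgb1 were also called. Without replicate 3 the count was 1 higher (Agrn) of 5 tested, without replicate 4 or replicate 5 it was 3 higher, and Itgb1 had overlapping libraries.

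Of 10 interferon and antigen presentation genes tested in a list of 24, Ifitm3 (1.79 ± 0.41), Bst2 (1.74 ± 0.28) and Ifi27 were higher and none was lower (30% called, near the 23.8% of all genes). Of 9 stress genes tested, the small heat shock protein gene Hspb1 was called (2.19 ± 0.55, 11.1% of the list called). It had 2221, 441, 636 and 466 CPM in Nox3 cells against 463, 189, 54 and 95 CPM and overlapping libraries. Of 7 genes of the senescence list tested, 4 were lower (57.1%, against 12.8% of all genes). Among them was Igfbp5, at 258 ± 222 CPM against 2110 ± 211 CPM, and 2, Igfbp5 and Igfbp3, were lower without replicate 3 or replicate 4. Of the markers of other cell types, Ucma was higher by 2.31 ± 0.25, as were Pcolce and Mbp, and Kit and Otof were lower. Mbp was not called without replicate 3 or replicate 4, nor Otof without replicate 4.

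**Figure D5:**
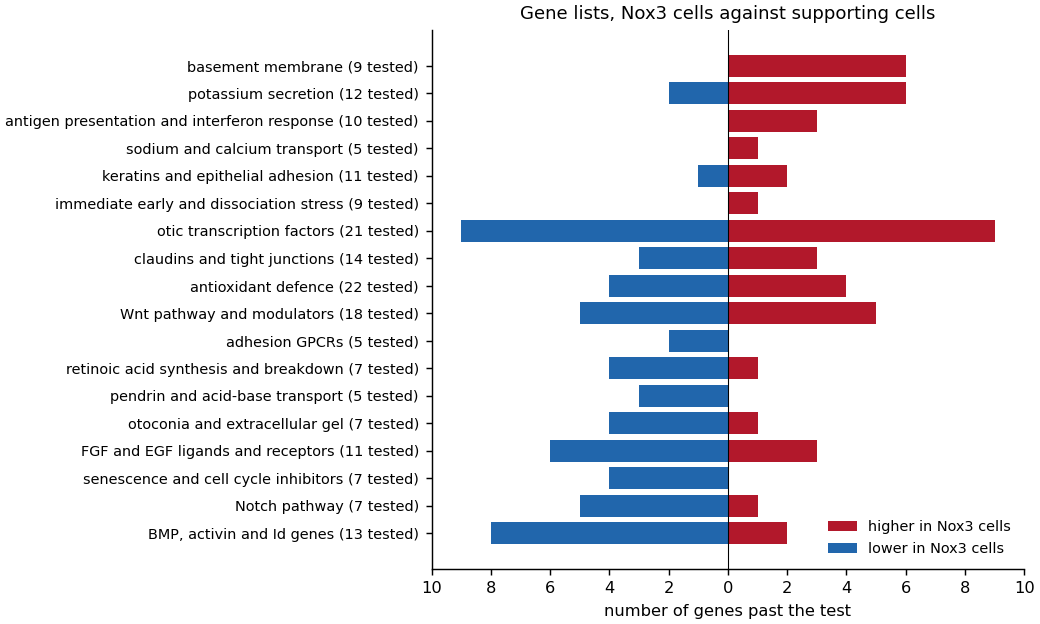
Number of genes of each list called higher (to the right) and lower (to the left) in Nox3 cells than in supporting cells, with the number tested. The transcription factor list has 9 on each side, the BMP list 2 against 8 and the basement membrane list 6 against 0.

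Among all genes, the largest increases included receptors and guidance molecules. Htr2c had 190 UMIs in Nox3 cells and 0 in supporting cells, which makes it at least 71.3-fold higher when 3 UMIs over the group are taken as the floor. Gm4117, an annotated antisense gene that overlaps Vcan, was at least 53.3-fold higher, and since the use of strand in counting is not given for it in the sources used here, its reads may be shared with Vcan. The protease inhibitor Slpi had 445 UMIs against 3, a ratio of 167 with a counting interval of 56.8 to 813. The transcriptional cofactor gene Zfpm2 had 127 against 1, a ratio of 143 (25.2 to 5692). These genes were near 0 in supporting cells. The sodium channel gene Scn7a had 191 against 2, a ratio of 108 (29.4 to 894). Ntn1 reached 656, 595, 397 and 440 CPM against 0, 14, 0 and 0 CPM (log2 difference 6.22 ± 0.48, adjusted p = 7.65e-08), and its relative Ntng1 was higher by 6.05 ± 0.58.

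On the other side, the lysophosphatidic acid receptor Lpar3 had 2 UMIs in Nox3 cells and 136 in supporting cells, 60.4-fold lower with a counting interval of 16.4 to 504. The transcription factor Sox1 had 2 and 112 UMIs, 49.7-fold lower (13.5 to 416). Slitrk6, which encodes a neurite-guiding membrane protein, differed by -5.15 ± 0.52 and the endothelin receptor Ednrb by -5.10 ± 0.38. The zinc transporter Slc39a8, the cytochrome oxidase subunit Cox4i2 and Gm266 differed by -5.31 ± 0.47, -5.20 ± 0.40 and -5.17 ± 0.50. Of 80 called genes followed through the alternatives, Malat1 included, 74 stayed on their side of the threshold in every alternative that tested them. Leaving out replicate 3 lowered the calls to 715, with 308 higher and 407 lower.

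To ask how Nox3 cells differ from dark cells, the same test was run against 50 cells that met the dark cell rule and were not Nox3 cells. This group was small, at 6, 26, 11 and 7 cells per library, and mixed. In replicate 1 the genes of the supporting rule summed to 4190 CPM in it, above the 855 CPM of its own dark cell genes. Melanocyte markers, led by Dct, reached 8521 CPM in replicate 3, and macrophage markers 2945 and fibroblast markers 3756 CPM in replicate 5. Their part in the differences was not tested. The comparison uses the same Nox3 libraries as that with supporting cells, so the results are not independent. A cell could also be in both the dark and the supporting group, since neither left out cells of the other. The 30 cells that met both the dark cell rule and the Nox3 rule were counted as Nox3 cells. A tendency for genes to move with the genes of either rule follows partly from the choice of cells.

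Of 2413 genes tested, 214 were called (8.87%), 129 higher in Nox3 cells (5.35%) and 85 lower (3.52%), with a median log2 difference of -0.02. The balance turned with the choice of members. It was 157 higher and 183 lower in members that met no other rule, 160 and 174 in members with a Nox3 UMI, and 188 and 210 in those with at least 4 rule genes. The libraries did not overlap for 114 of the genes called higher and 58 of those called lower. Leaving out replicate 3, which held 26 of the 50 dark cells, brought the calls to 39, with 34 higher and 5 lower. With the library as a block the total was 198. At 2000 UMIs per cell, which left 3 libraries, the calls of Cited2, Mrs2, B4galt6, Plcb4, Tbx2, Tbx3, Fgfr1, Fzd3, Epcam, Cdkn1b, Sod2, Prdx4 and Prdx6, given below, were among those lost.

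The genes farthest apart were at 0 in all 4 sums of dark cells. Snhg11, a small nucleolar RNA host gene, reached 672, 1069, 930 and 933 CPM in Nox3 cells and was at least 97.3-fold higher. The serine protease Prss23 was at least 39.3-fold higher, the whey acidic protein family member Wfdc12 at least 31.9-fold, Slpi at least 24.1-fold and Smoc2 at least 18.1-fold. Foxq1, at 137, 120, 99.3 and 99.6 CPM, was at least 11.2-fold higher, and Htr2c at least 10.3-fold. Slco2a1 had 473 UMIs against 1, a ratio of 76.7 with a counting interval of 13.7 to 3037. Cldn23 had 414 against 1, a ratio of 67.2 (12.0 to 2659), and the acetylcholine receptor subunit gene Chrnb1 293 against 1, a ratio of 47.5 (8.47 to 1884).

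Antioxidant genes were split again, with 2 higher and 3 lower of 16 tested (31.3% called, against 8.87% of all genes). Sod3 reached 197, 12.4, 0 and 0 CPM in dark cells, below every Nox3 library (log2 difference 4.90 ± 0.75, adjusted p = 0.000966). Gpx3 was lower than in dark cells, at 763, 401, 467 and 341 CPM against 2347, 994, 1632 and 3153 CPM (-2.01 ± 0.37, adjusted p = 0.00325), whereas it was higher than in supporting cells. Prdx4 was higher (1.60 ± 0.45), but was not called without replicate 5 (adjusted p = 0.0866). The mitochondrial dismutase Sod2 and Prdx6 were called lower, at -1.05 ± 0.27 and -1.02 ± 0.28, but with the replicate block their adjusted p-values were 0.0509 and 0.0697. Without replicate 3 or replicate 4 the calls of the list were Sod3 and Gpx3 alone. With at least 2 dark cell genes required of the dark cells, in place of 3, the difference of Gpx3 was -1.08 (adjusted p = 0.111).

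Of 8 tight junction genes tested 3 were higher and 1 lower (50% called, against 8.87% of all genes), and of 7 keratin and adhesion genes 2 were higher and none lower (28.6% called). Cldn8 reached 132, 130, 97.4 and 23.2 CPM in dark cells, below the lowest Nox3 library at 456 CPM (2.35 ± 0.35, adjusted p = 0.000778). Krt18 and Epcam were higher by 1.85 ± 0.43 and 1.27 ± 0.27, and Cldn3 was called higher with overlapping libraries but not without replicate 3, 4 or 5 (adjusted p = 0.245, 0.123 and 0.0736). None of the keratin list was called without replicate 3 or without replicate 4, and without replicate 5 Krt18 missed the threshold too (adjusted p = 0.0505). With 2 dark cell genes required, the difference of Epcam was 0.72 (adjusted p = 0.202). Cgnl1, a junction plaque gene, was lower by 1.60 ± 0.35 on the log2 scale, but was not called without replicate 4 (adjusted p = 0.0954), with no filter on low counts (0.0574) or at 2000 UMIs per cell (0.0511). The matrix genes Matn4 (215 UMIs against 2, a ratio of 17.4 with a counting interval of 4.77 to 145), Sparc (2.18 ± 0.48) and Agrn (2.56 ± 0.47) were higher. Sparc was not called without replicate 3 or replicate 4, and with 2 dark cell genes required its difference was 0.48 (adjusted p = 0.283).

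Of 10 transcription factors tested, Gata2 (2.50 ± 0.57), Meis2 (1.68 ± 0.37) and Tbx3 (1.35 ± 0.34) were higher and Tbx2 (-1.61 ± 0.36) was lower (40% called, against 8.87% of all genes). Without replicate 3, none of the 7 factors tested was called. Without replicate 5 none of these 4 was called, with adjusted p-values of 0.0563 for Gata2, 0.0533 for Meis2, 0.0785 for Tbx3 and 0.0740 for Tbx2. Meis2 was not called without replicate 4 either (adjusted p = 0.0662). The receptors Fgfr1, Tgfbr3 and Fzd3 were higher by 2.70 ± 0.50, 1.95 ± 0.40 and 1.62 ± 0.40, but none of the 3 was called without replicate 3, nor Fzd3 without replicate 5.

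Of 4 genes of the senescence list tested 1 was higher and 2 were lower (75% called, against 8.87% of all genes). Cdkn1a, which encodes p21, reached 45.8, 45.1, 25.7 and 52.4 CPM in Nox3 cells and 110, 112, 390 and 69.6 CPM in dark cells (-1.79 ± 0.43), and Cdkn1c was lower as well (-1.80 ± 0.33). The difference of Cdkn1a was -1.08 without replicate 4 (adjusted p = 0.144) and -0.58 with 2 dark cell genes required (adjusted p = 0.292). Without replicate 3 none of the list was called of 2 tested. Cdkn1b was higher (1.60 ± 0.41), with an adjusted p of 0.0514 under the block and no call without replicate 3, 4 or 5. The metallothionein Mt1 reached 137, 144, 180 and 157 CPM against 417, 888, 852 and 835 CPM (-2.25 ± 0.30, adjusted p = 0.000362), and the Krüppel-like factor Klf9 34.2 to 53.4 against 154 to 174 CPM (-2.10 ± 0.30). Cited2, Mrs2, B4galt6 and Plcb4 were lower by 1.95 ± 0.40, 1.94 ± 0.35, 2.40 ± 0.50 and 1.97 ± 0.56 on the log2 scale, and the adjusted p of Plcb4 was 0.0566 under the block. Plcb4 was not called without replicate 1, 4 or 5 either (adjusted p = 0.0757, 0.0725 and 0.191), and B4galt6 differed by -1.27 with 2 dark cell genes required (adjusted p = 0.117). Ucma was higher by 2.19 ± 0.47, but by 1.86 without replicate 4 (adjusted p = 0.0616) and by 0.46 with 2 dark cell genes required (adjusted p = 0.334). Hbb-bs was called higher (7.01 ± 1.23), at 53.4, 5648, 30654 and 17237 CPM against 65.8, 130, 73.1 and 139 CPM, so replicate 1 showed no excess, and with 2 dark cell genes required the difference was 0.34 (adjusted p = 0.948).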

How the data were processed

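Vestibular and cochlear cells of old mice were profiled with 10x 3′ single-cell RNA-seq. The authors aligned reads to mm10 with Cell Ranger and deposited raw UMI counts for 32285 genes in filtered barcodes; per the file headers replicates 1 and 2 were made with version 5.0.1 and the rest with 6.1.2, whereas the labels give 6.1.2. How strand was used in counting is not given in the sources used here. Sample groups came from the labels. Total counts per vestibular library ranged from 4150642 to 24104850 UMIs, and the Nox3 cells of a library summed to 131045 to 1198471 UMIs. UMI counts limit precision to counting error within a library, and intervals and floors cover counting error only.

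Cells were kept at 200 genes, 1000 UMIs and less than 25% mitochondrial UMIs. Doublets were not removed. The members and the gene lists were chosen with earlier results of these data known. UMIs were summed per library and population where a library held at least 5 cells of both, and tested with edgeR 4.0.16 (glmQLFit and glmQLFTest, TMM factors, filterByExpr, R 4.3.3), with Benjamini-Hochberg adjustment over all genes tested and a threshold of 0.05. Differences are log2 values of Nox3 cells minus the other population with their SE. On simulated counts with a log2 change of 2 between Nox3 cells and supporting cells, 99.3% of 149 changed genes among 4988 were recovered, with 5.73% false calls. For dark cells it was 97.9% of 143 among 2478, with 2.10%. Only changed genes that passed the filter on low counts entered these rates. The simulation gave every gene the same spread and let libraries differ in depth alone. Its rates therefore do not describe tests on the spread of the measured counts. The p-values measure the spread between pools of mice.

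Both populations of a library came from the same animals. The deviations of same-numbered sums from their group means correlated at 0.210, 0.141, 0.123 and 0.157 for supporting cells and 0.207, 0.0899, 0.158 and 0.108 for dark cells (replicates 1, 3, 4 and 5). The blocked fit is given where it changes a call. Planned comparisons with pendrin cells (2 cells, both in replicate 5) and with cochlear cells that meet the rule (1 cell) could not be run. Named genes were the rule genes, per list at most 4 genes by abundance and at most 4 called genes by size of change, and the 10 called genes in each direction with the largest change, at 50 CPM or more in the higher population and without overlap between libraries, and without test the 20 genes with the highest ratio to the rest. Genes given by name alone were added after their values were seen. Alternatives were DESeq2 1.42.0, upper quartile factors, no filter on low counts, other rules for cells, replicate 2 in place of replicate 1 and leaving out each library. A further alternative, members with a Nox3 UMI, was chosen after seeing the data. Some genes that met the naming rule are not reported here. Gene positions are from GENCODE on GRCm38.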

Additional observations from a re-analysis of the deposited data

Results flagged for a closer look

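For 20 of 130 levels in Nox3 cells, 1 library lay far from the other 3 by Dixon's test at 95%, where chance gives about 1 in 20. Many were in replicate 1, the library with 38 members. Of these, Otog at 473 CPM (others 21.0 to 47.8), Tecta at 45.8 CPM, Dkk3 at 122 CPM, Wnt7a at 38.2 CPM, Kcnj10 at 68.7 CPM, Slitrk6 at 76.3 CPM and Gm266 at 68.7 CPM were the highest of the 4. The 1 member that also met the supporting cell rule held 62 of 62 UMIs of Otog, 6 of 6 of Tecta, 15 of 16 of Dkk3, 5 of 5 of Wnt7a, 8 of 9 of Kcnj10, 10 of 10 of Slitrk6 and 9 of 9 of Gm266.

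Other levels of replicate 1 did not come from that cell. Hspb1 reached 2220 CPM (others 441 to 636), and its 291 UMIs were spread over 32 of the 38 members. Wnt3 reached 229 CPM (others 47.2 to 73.4) from 10 members, and Mup5 176 CPM (others 7.35 to 15.0) from 3 members. Prdx6 was lowest in replicate 1, at 114 CPM.

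Replicate 3 was highest for Kdr, at 467 CPM (others 359 to 372), and for Lpar3 and Sox1, each at 1.67 CPM against 0. Replicate 4 was lowest for Htr2c, at 69.8 CPM (others 107 to 113), and for Fzd3, at 121 CPM. Replicate 5 was highest for Kcnq1, at 126 CPM, and Hes1, at 41.9 CPM, and lowest for Cldn3, at 414 CPM, and Egfr, at 10.5 CPM.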

How the results depend on the processing

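The number of Nox3 cells, 674, was 871 with 2 of the 7 genes required and 518 with 4, 562 at less than 10% mitochondrial UMIs and 381 at 2000 UMIs per cell. It was 572 with Vcan taken out of the rule, 593 with Nox3, 544 with Adgrg6 and 623 with Cldn4 taken out. Leaving out each library gave 233 to 636. Against supporting cells, no filter on low counts gave 2043 calls, 1234 of them lower, and leaving out each library gave 715 to 1322, with 308 to 667 higher and 407 to 655 lower. With the replicate block the calls were 1338, and no named gene lost its call. Slc12a2 turned to -1.39 in members that met no other rule and to -1.10 in members with a Nox3 UMI (81 of its UMIs lay in the 549 members with a Nox3 UMI and 1026 in the 125 without). Against dark cells, no filter on low counts gave 745 calls (364 higher, 381 lower) and DESeq2 gave 148 lower of 317. Requiring 4 rule genes gave 398 (210 lower), members that met no other rule 340 (183 lower) and members with a Nox3 UMI 334 (174 lower). At 2000 UMIs per cell, which left 3 libraries, it was 115 (25 lower), and with 2 dark cell markers required 128 lower of 303. Leaving out each library gave 39 to 357, with 34 to 210 higher and 5 to 147 lower. The cause of these changes was not tested. Without replicate 3 the smallest count of each comparison was reached. Of 42 called genes named against dark cells, 17 stayed called in every alternative that tested them, and 21 genes, Malat1 among them, crossed the threshold in some fit without 1 library. With the replicate block there were 198 calls, and Prdx6, Plcb4, Cdkn1b and Sod2 lost theirs, as the text gives. Malat1 passed against dark cells under the block (adjusted p = 2.99e-05) and with DESeq2. The genes tested numbered 4946 and 2413 after the filter on low counts and without the genes of the rules, and many listed genes were not among them.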
